A study of Mus musculus with 8 samples.

Results

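Afp, H19, Meg3, Dlk1, Gpc3, Mdk and Peg3 are genes of the fetal liver or of imprinted domains, and their transcripts were followed in mouse liver tumours and in mouse livers after adenovirus. The members were the probe sets whose only gene symbol in the platform annotation was 1 of these 7 names. This gave 25 of the 45101 probe sets on the tumour arrays and 16 of the 22690 on the adenovirus arrays, for 6 of the 7 genes. Meg3 had 11 probe sets on the tumour arrays, Afp and Peg3 had 5 each, Dlk1 had 2, and Gpc3 and Mdk had 1 each. H19 had 0 probe sets under this rule.

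The tumour groups were 3 mTERC+ and 3 mTERC- hepatocellular carcinomas, all p53-/- and carrying the HBs transgene, from mice aged 12 to 15 months. Each tumour was hybridised to its own array. The adenovirus groups were livers of p53-/- mice taken 48 h after intravenous infection with 2e+10 PFU of Ad TRF2DBDM or of Ad GFP, with RNA of 3 mice pooled on 1 array for each virus. All mice were on the C57BL/6J background. By these genotypes every group lacked p53, controls included. mTERC is the RNA component of telomerase, and TRF2 is a protein that protects telomere ends. The sources used here do not give the promoter of the HBs transgene, the generation of the mTERC- mice, the age of the infected mice or the sex of any mouse. A group difference or ratio is stated as mTERC- against mTERC+ or as Ad TRF2DBDM against Ad GFP.

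The fetal liver makes alpha-fetoprotein, the product of Afp, as its main plasma protein, and the gene is silenced after birth as albumin takes over. Afp, Gpc3 and Mdk are called oncofetal because liver tumours can express them again, and their products are used as blood or tissue markers of hepatocellular carcinoma. H19, Meg3, Dlk1 and Peg3 are imprinted, meaning that the copy from 1 parent is expressed and the other is silenced. Meg3 is a long noncoding RNA of the maternal copy and Dlk1 is expressed from the paternal copy of the same domain, under a shared imprinting control region.

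The promoters of Afp and Meg3 are shown because these genes had several probe sets whose tumour groups did not overlap, and because the 2 windows shown differ in kind. They are the 250 bases before the annotated start, both on the plus strand, at chr5:90490464-90490713 for Afp and at chr12:109540746-109540995 for the first of the Meg3 entries, from RefSeq on GRCm38.p6. Sequences run 5′ to 3′, and capitals mark matches to TATAAA (the core of a TATA box), GTTAAT (part of the site bound by HNF1 factors) and TGACGTCA (the cyclic AMP response element), each searched on both strands and chosen after the sequences had been read.
Afp: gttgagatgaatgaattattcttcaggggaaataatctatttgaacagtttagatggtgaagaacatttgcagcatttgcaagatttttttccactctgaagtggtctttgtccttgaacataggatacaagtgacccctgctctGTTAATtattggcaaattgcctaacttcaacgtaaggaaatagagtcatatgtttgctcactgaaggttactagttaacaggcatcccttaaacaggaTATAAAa
Meg3: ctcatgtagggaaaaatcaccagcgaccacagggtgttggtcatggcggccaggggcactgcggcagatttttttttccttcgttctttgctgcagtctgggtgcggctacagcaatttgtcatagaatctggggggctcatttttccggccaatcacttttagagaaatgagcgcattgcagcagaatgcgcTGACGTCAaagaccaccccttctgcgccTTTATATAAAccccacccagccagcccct
In the Afp window TATAAA began at base -7 and GTTAAT at base -105 from the start, with 1 CpG and 36% G+C. In the Meg3 window TGACGTCA began at base -57, and plus-strand and minus-strand matches to TATAAA overlapped at bases -25 and -29, with 10 CpGs and 52.4% G+C. The window of another Meg3 entry, chr12:109545148-109545397, held 0 CpGs, 50% G+C and none of the 3 motifs. The contrast with Afp therefore depends on the Meg3 start chosen. Over 32851 promoter windows the median was 6 CpGs, and TATAAA was found in 12.4%, GTTAAT in 6.43% and TGACGTCA in 1.55%. The Gpc3 window held 25 CpGs, more than in 89.3% of windows, and none of the 3 motifs. Dlk1 and Peg3 windows held 8 CpGs each, with TGACGTCA at base -178 of Peg3 and no match for Dlk1. A match is a description of the letters and not a site of binding. Promoter entries were matched for 5 of the 7 genes, without Mdk and H19.

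Values are MAS5 signals, a linear brightness per probe set. Their trimmed mean, computed here from the deposited signals, was 150 on each tumour array and each adenovirus array. Median signals were 54.5 to 59.4 on 5 tumour arrays and 75.1 on that of mTERC- tumour 2. That array also had a Gapdh 3′ to 5′ ratio of 13.8, a sign of RNA quality, against 0.983 to 1.18 on the others. The 18S control was 319 and 349 in mTERC- tumours 2 and 3 against 11010 to 27810 in the other tumours. Xist was 920.5 in mTERC- tumour 1, 103.8 in mTERC- tumour 2 and 13.3 to 56.8 in the other tumours. Marker genes of hepatocytes, led by Apoa1, Alb, Ttr and Fgb, summed to 143554 to 200198 in every tumour. In such bulk samples, fewer cells of a type and less RNA per cell cannot be told apart.

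In the brightest probe sets of Afp, Mdk and Meg3, all 3 mTERC- tumours had signals above those of all 3 mTERC+ tumours. Mean differences were 3.14-fold to 6.31-fold in signal plus 32, and other probe sets of Afp and Meg3 overlapped. None of the 3 passed the test across all genes. Peg3 was high in 2 of 3 mTERC- tumours only, and Dlk1 varied widely in both groups. Gpc3 was dim on average, at 7.1 to 108.9. It was above the array median in mTERC+ tumours 1 and 3 and in mTERC- tumour 3. Adjusted p-values below are from limma with Benjamini-Hochberg adjustment over the 11966 genes tested unless the fit over all probe sets is named, and differences are on the log2(signal + 32) scale with their standard errors.

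Afp encodes the fetal plasma protein alpha-fetoprotein. Its brightest probe set, 1416646_at, gave 21.7, 172.4 and 210.8 in mTERC+ tumours 1 to 3 and 1409.7, 358.8 and 1157.7 in mTERC- tumours 1 to 3. All mTERC- tumours were above all mTERC+ tumours, and mTERC+ tumour 1 was the lowest. The means were 975.4 ± 549 and 135 ± 99.95 (SD, n = 3 each), a log2 difference of 2.66 ± 0.58 with an adjusted p of 0.757 in limma, rank 6 by p among all genes tested. The 95% interval in the fit over all probe sets was 1.62 to 3.70, with an adjusted p of 0.113 in limma.

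A second Afp probe set, 1416645_a_at, gave 2.2, 78.3 and 105 in mTERC+ tumours and 364.5, 237.3 and 622.8 in mTERC- tumours. Again the groups did not overlap, and the limma fit over all probe sets gave 2.36 on the log2 scale with an adjusted p of 0.463. The other 3 Afp probe sets were dimmer and overlapped. Probe set 1436879_x_at gave 77 to 156.1 in mTERC+ and 79.7 to 298 in mTERC- tumours, and 1436880_at was lower on average in mTERC- tumours, at 14.7 to 31.7 against 7.5 to 127.1. Probe set 1436881_x_at lay between 28.7 and 113.8 in mTERC- and between 4.4 and 92.1 in mTERC+ tumours. From the lowest to the highest tumour, log2(signal + 32) spanned 4.26 for 1416645_a_at and 4.75 for 1416646_at.

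Mdk encodes midkine, a secreted heparin-binding growth factor. Its probe set 1416006_at gave 459, 175.4 and 376 in mTERC+ tumours and 1333.3, 660.4 and 2002.7 in mTERC- tumours. Each mTERC- tumour was above every mTERC+ tumour, with 660.4 against 459 at the nearest. The means were 1332 ± 671 and 337 ± 146 (SD, n = 3 each), a log2 difference of 1.84 ± 0.45 with an adjusted p of 0.892 in limma, or 3.59-fold in signal plus 32. The 95% interval in the fit over all probe sets was 1.04 to 2.65, with an adjusted p of 0.302 in limma. Array weights, which give less influence to more variable arrays, brought Afp 1416646_at to an adjusted p of 0.0112 and Mdk to 0.0434 in the limma fit over all probe sets. Over the alternatives of that fit the adjusted p ran from 0.0112 to 0.912 for this Afp probe set and from 0.0434 to 0.999 for Mdk.

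Gpc3 encodes glypican 3, a cell-surface heparan sulfate proteoglycan. Its probe set 1450990_at gave 73.5, 7.1 and 108.9 in mTERC+ tumours and 29.6, 28 and 72.6 in mTERC- tumours. The groups overlapped, and the level lay below the filter for testing genes, so Gpc3 was tested only in the fit over all probe sets. There its log2 difference was -0.20 ± 0.63, with a 95% interval of -1.49 to 1.10 and an adjusted p of 0.987 in limma.

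**Figure D1:**
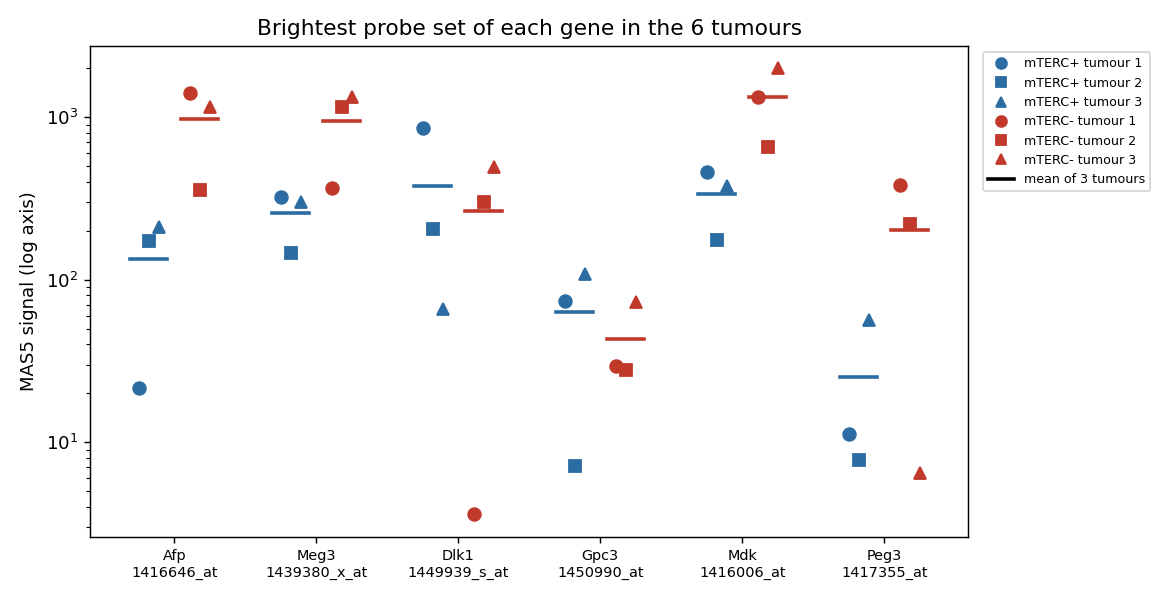
Signals of the brightest probe set of each of the 6 genes in the 3 mTERC+ and 3 mTERC- tumours, on a log axis of MAS5 signal, with 1 point a tumour. Afp, Mdk and Meg3 show no overlap between the groups, while Dlk1, Gpc3 and Peg3 overlap.

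Meg3, a long noncoding RNA, is measured by 11 probe sets. Probe set 1439380_x_at, the brightest, gave 325.1, 145.2 and 301 in mTERC+ tumours and 367, 1160 and 1336 in mTERC- tumours. The groups did not overlap, but mTERC- tumour 1 lay only just above mTERC+ tumour 1. The means were 954 ± 516 and 257 ± 97.7 (SD, n = 3 each), a log2 difference of 1.65 ± 0.47 with an adjusted p of 0.914 in limma. Its suffix marks probes that may bind other transcripts.

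Meg3 probe set 1426758_s_at gave 143.7, 45.2 and 171.9 in mTERC+ tumours and 277.3, 511.7 and 892.6 in mTERC- tumours, without overlap. On the log2 scale mTERC- tumours were higher by 1.94, with an adjusted p of 0.532 in the limma fit over all probe sets. In probe sets 1452183_a_at and 1452905_at mTERC- tumour 1 lay within the mTERC+ range, at 232.2 against 68.1 to 299 and at 314.3 against 104.6 to 393.6. Across the 4 Meg3 probe sets with a mean signal of at least 250, mTERC- tumours 2 and 3 were the 2 brightest in 4 of 4. The lowest was mTERC+ tumour 2 in 4 of 4. The mean used for this cut includes mTERC- tumours 2 and 3, so that count is partly built in. In 1426758_s_at and 1452183_a_at the mTERC+ means, 120 and 186, were below the cut. All these probe sets measure 1 gene in the same tumours and are not independent. In the 7 other Meg3 probe sets mTERC- tumours 2 and 3 were the brightest pair in 0. Those 7 lay between 6.7 and 320.8 in all tumours, and 3 of them had a lower mean log2 level in mTERC- tumours, with log2 differences of -0.91 (1428765_at), -0.40 (1428764_at) and -0.022 (1429256_at). Tumours 2 and 3 of the mTERC- group are also those with the low 18S control, and with 18S as a covariate the log2 difference of 1439380_x_at was 0.63. Without mTERC- tumour 1 it was 2.21, with an adjusted p of 0.0404 in the limma fit over all probe sets, where the alternatives ranged from 0.0404 to 0.999. In 1452905_at, a probe set without such a suffix, the log2 difference was 1.18.

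Dlk1 encodes a Delta-like membrane protein of fetal hepatoblasts and other progenitor cells. Its probe set 1449939_s_at gave 860, 205.5 and 66.3 in mTERC+ tumours and 3.6, 299.6 and 493 in mTERC- tumours. Log2(signal + 32) spanned 4.65, and both extremes were replicate 1 of their group. The log2 difference was -0.58 ± 0.87 with an adjusted p of 0.969 in limma. The sign turned to 0.27 without mTERC+ tumour 1 and to 0.60 without mTERC- tumour 1, and was 1.05 with Xist as a covariate. With 18S as a covariate it was -3.18, with an unadjusted p of 0.00196 and an adjusted p of 0.870 in limma. The order of the tumours was not that of Meg3, its neighbour in the domain, whose 1439380_x_at was brightest in mTERC- tumour 3. The second Dlk1 probe set, 1442724_at, was dimmer, at 39.1, 184.4 and 9.6 in mTERC+ and 62.4, 85.1 and 5.3 in mTERC- tumours, and was highest in another tumour, mTERC+ 2.

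Peg3 encodes a paternally expressed zinc finger protein. Its brightest probe set, 1417355_at, gave 11.2, 7.8 and 56.5 in mTERC+ tumours and 383.1, 220.1 and 6.5 in mTERC- tumours. mTERC- tumours 1 and 2 were above all others, and mTERC- tumour 3 was the lowest of all 6. The log2 difference was 1.58 ± 0.77 with an adjusted p of 0.952 in limma. Probe set 1433924_at gave 83.8, 10.4 and 4.2 in mTERC+ and 360.9, 100 and 8.9 in mTERC- tumours, so mTERC- tumours 1 and 2 were again the brightest. The other 3 Peg3 probe sets lay between 1 and 96.6. With 18S as a covariate the difference of 1417355_at was 3.08, with an adjusted p of 1.00 in limma. Peg3 was below the filter for testing without mTERC- tumour 1.

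**Figure D2:**
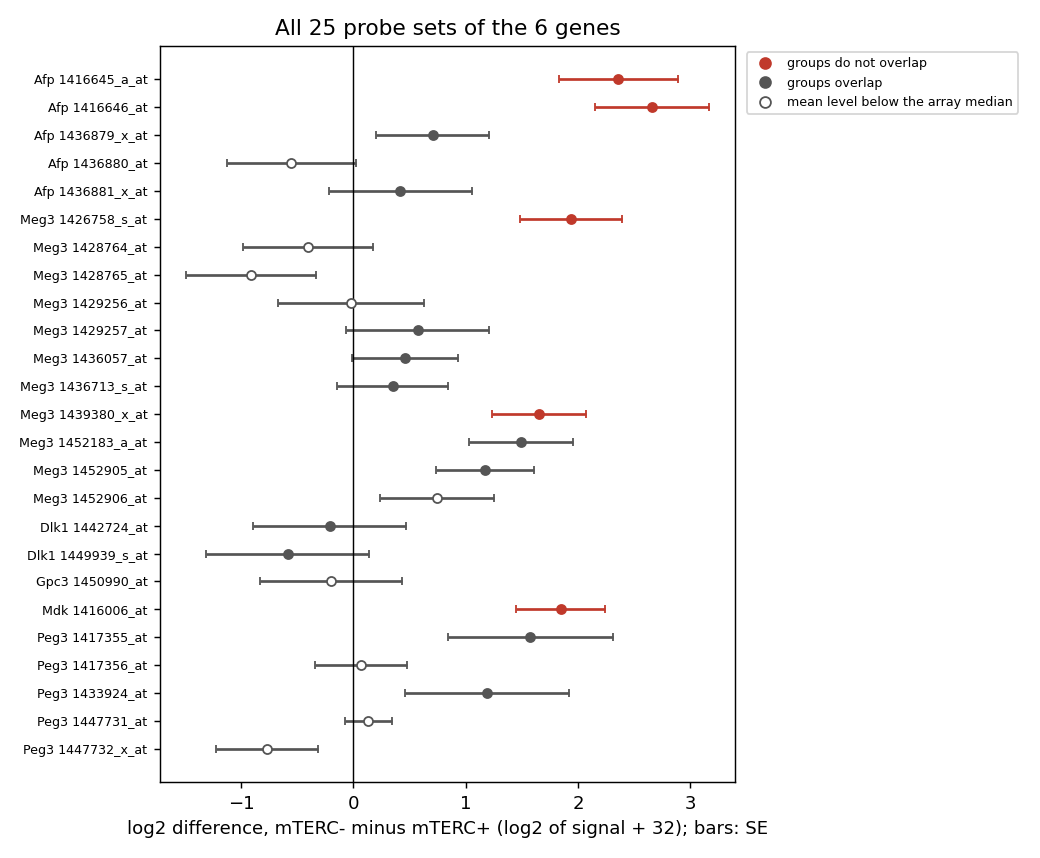
Log2 differences, mTERC- minus mTERC+, of each of the 25 probe sets on a log2 axis, with bars of 1 standard error from the limma fit over all probe sets, red points where the groups do not overlap and open points where the mean level is below the array median. The 5 red points belong to Afp, Meg3 and Mdk and run from 1.65 to 2.66, while 8 of 25 lie below 0: 3 of Meg3, 2 of Dlk1 and 1 each of Afp, Gpc3 and Peg3.

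Across the 5 genes that were tested, 0 passed in limma, against 1 of all 11966 tested genes (0.00836%), the neutrophil gene S100a8. At an unadjusted p below 0.05 in limma there were 607 of the 11966 genes, Afp, Mdk and Meg3 among them. Among the probe sets 0 of 25 passed, against 3 of 34958 (0.00858%). With an unadjusted p below 0.05 in limma there were 8 of 25, against 1618 of 34958. These 8 were 4 of Meg3, 2 of Afp and 1 each of Mdk and Peg3. Afp, Mdk and Meg3 did not overlap and were higher, which is 3 of 5 genes with 0 lower, where 5.77% of all tested genes were higher without overlap and 4.39% were lower. By probe sets, 17 of 25 had a higher and 8 a lower mean log2 level in mTERC- tumours. Without overlap, 5 of 25 were higher and 0 lower, against 5.71% and 4.41% of all probe sets. Of the 25, 11 are of Meg3. Probe sets of 1 gene in the same tumours are not independent, so these are not counts of separate genes. Without mTERC- tumour 2, and with the probe sets unchanged, the count was again 3 of 5 genes. It could not have fallen, because leaving a tumour out cannot make separated groups overlap. In that run 10.3% of all genes were higher without overlap. The median log2 difference of the 5 tested genes was 1.65, and that of all tested genes was 0.02. Which genes were tested depends on the level filter. Peg3 fell below it without mTERC- tumour 1, its brightest, and Gpc3 was below it with all tumours. The smallest exact two-sided p that 3 tumours against 3 can give for a single value is 0.1.

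**Figure D3:**
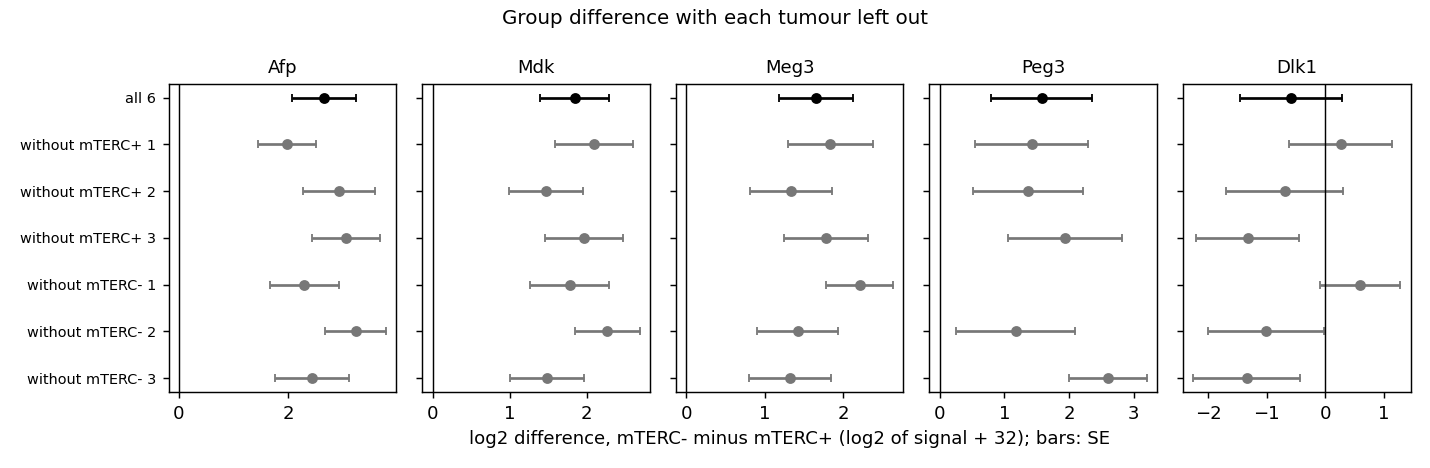
Log2 difference, mTERC- minus mTERC+, of each tested gene on the horizontal axis with bars of 1 standard error, with all 6 tumours in black and each tumour left out in turn in grey. Afp stays between 1.97 and 3.24, Mdk between 1.47 and 2.27, and Meg3 between 1.32 and 2.21, while Dlk1 runs from -1.34 to 0.60, Peg3 has no point without mTERC- tumour 1, and its point without mTERC- tumour 2 is from probe set 1433924_at.

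Signals of other cell types in the same tumours are given beside these differences. Neutrophil markers, 8 of 10 genes led by S100a9, S100a8, Ngp and Camp, summed to 397.8 to 3024 in mTERC+ and 9078.1 to 21979.4 in mTERC- tumours, without overlap. Erythroid markers, 6 of 8 genes, summed to 781.6 to 1231.3 in mTERC+ and 409.3 to 696.7 in mTERC- tumours, without overlap as well, while of the 4 tested singly 2 were higher and 2 lower on average, with a median of -0.09. Macrophage markers summed to 11388.5 to 61824.6 in mTERC+ and 10849.6 to 18691.1 in mTERC- tumours, which overlapped, but 12 of 12 genes were lower on average in mTERC- tumours, 6 of them at an unadjusted p below 0.05 in limma, with a median log2 difference of -1.17. Endothelial markers were lower on average for 10 of 12 genes, 1 at an unadjusted p below 0.05 in limma, with a median of -0.40 and sums of 1990.9 to 3294.5 and 1302.5 to 2373.3. Sums of 14 stellate markers overlapped, at 5261.5 to 11067.4 in mTERC+ and 3698.9 to 9030 in mTERC- tumours, as did those of 9 biliary and progenitor markers, at 2415.5 to 4674.2 and 2950.3 to 5227.7. The part of these cells in the differences of Afp, Mdk and Meg3 was not tested. No marker was listed at 0.

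Genes that work with the members were counted over lists, chosen with earlier results of these data known, in which 0 genes passed in limma. Beside the counts without overlap in each list stand 5.77% higher and 4.39% lower over all 11966 tested genes. Among the genes that regulate Afp, 12 of 14 were tested, 1 at an unadjusted p below 0.05, with a median log2 difference of 0.17. Cebpb, a hepatocyte transcription factor, was the 1 higher without overlap, at 1289 ± 460 in mTERC- and 632 ± 58.8 in mTERC+ tumours. Alb, the neighbour of Afp in the albumin gene cluster, was 45632 ± 6295 in mTERC- and 49554 ± 6541 in mTERC+ tumours, a log2 difference of -0.12. Of 11 tested midkine family and receptor genes, 9 were lower on average and 0 were at an unadjusted p below 0.05, with a median of -0.38. Itgb1, an integrin subunit, and Sdc3, a syndecan, had differences of -1.07 and -1.06. Itga6, also an integrin subunit, was higher on average, at 0.75.

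Glypican and heparan sulfate genes gave a median of -0.15 over 13 tested. Gpc6, another glypican, was the 1 lower without overlap, at 41.7 in mTERC- and 89.2 in mTERC+ tumours. Gpc4, also a glypican and picked by name, was the 1 higher, at 559 ± 35.1 against 426 ± 44.2. None of the 13 genes (0) had an unadjusted p below 0.05. Of 16 Delta and Notch genes the median was -0.08 with 0 at an unadjusted p below 0.05, and Dlk2, the closest relative of Dlk1, was 140 ± 40.6 in mTERC- and 69.1 ± 23.7 in mTERC+ tumours, without overlap.

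Among 48 other imprinted genes, 32 were tested, with a median of -0.08 and 2 at an unadjusted p below 0.05 in limma. Without overlap, 0 of the 32 were higher and 3 lower, against 5.77% and 4.39% of all tested genes. Sgce, an imprinted sarcoglycan, was among those lower, at 678 ± 263 in mTERC- and 1764 ± 171 in mTERC+ tumours, which is -1.41 ± 0.36 on the log2 scale (limma, adjusted p = 0.892). Grb10, an adaptor of insulin receptor signalling, was 267 against 113, and Mest, an imprinted hydrolase, 47.2 against 138. Igf2, the fetal growth factor imprinted beside H19, was 18549 ± 5449 in mTERC- and 14475 ± 5819 in mTERC+ tumours, a log2 difference of 0.39 ± 0.36 with an adjusted p of 0.965 in limma. It was picked by name as a partner of the members. Of 13 tested genes that maintain imprints and methylation, 4 were higher without overlap and 0 lower, against the same 5.77% and 4.39%. In limma 1 had an unadjusted p below 0.05, and the median was 0.25. Uhrf1, which recruits the maintenance methyltransferase, was 168 against 56.3, a log2 difference of 1.26. The 17 tested other fetal and oncofetal genes had a median of 0.03, with 2 at an unadjusted p below 0.05. Ly6d, a surface protein, was the 1 lower without overlap, at 4596 ± 1977 against 8266 ± 2037. Cd24a, the other of these 2, was higher on average with overlap, at 603 ± 162 against 331.5 ± 245.

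The genes whose levels over the 6 tumours most resembled the members were found by the mean absolute difference of log2 levels after centring each gene. This was done for members spanning at least 2 log2 units, over all tested genes. For Afp these were Cntrl (0.614), Smim22 (0.641) and Tmem184c (0.670). For Mdk they were Styk1 (0.283), Ints13 (0.323) and Cgref1 (0.342), and for Meg3 Lgi3 (0.231), Ltbp3 (0.269) and Pgap4 (0.278). Dlk1 was nearest to Cyp4f14 (0.496), Vil1 (0.520) and Fgfr1 (0.565), and Peg3 to Wls (0.330), Hid1 (0.453) and Ddx11 (0.494).

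In the adenovirus livers, which had 1 array for each virus and so no test, Afp was lower with Ad TRF2DBDM. Afp 1416646_at gave 225.3 with Ad TRF2DBDM and 680.6 with Ad GFP, a log2 ratio of -1.47 or 2.77-fold lower. Probe set 1416645_a_at gave 112.1 against 582.4, 4.26-fold lower in signal plus 32. The other 3 Afp probe sets were lower too, at 72.7 against 139.9, 2.4 against 7.3 and 20 against 57.8. Of the 6 member genes, Afp and Meg3 reached the array median (52.5 with Ad TRF2DBDM and 46.1 with Ad GFP) on at least 1 array, and Gpc3 fell just short, at 38.9 and 46. Afp was at least 2-fold lower, 1 of 2 genes compared, where 2.95% of 7789 genes were at least 2-fold lower and 4.65% at least 2-fold higher.

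Meg3 gave 70.7 against 88 in 1439380_x_at, 9.4 against 60 in 1426758_s_at and 10.1 against 49.2 in 1436057_at. Below the median on both arrays, 1436713_s_at gave 2.1 against 9.8 and 1452183_a_at gave 15.4 against 7.9. The Meg3 ratio thus differed between probe sets in size, and in 1452183_a_at also in direction. Mdk was dim, at 40.9 with Ad TRF2DBDM and 27.7 with Ad GFP. Dlk1 1449939_s_at gave 33.1 and 14.8, and Peg3 1417355_at gave 43.2 and 40. Peg3 was dimmer in 1433924_at, at 27.3 and 2.8, and in 1417356_at, at 3.6 and 1.8. In the same livers the hepatocyte markers summed to 62855.7 with Ad TRF2DBDM and 41490 with Ad GFP, and the biliary and progenitor markers to 492.6 and 1131.6. The part of these in the Afp ratio was not tested. Alb was 11360.6 against 8671.7, a log2 ratio of 0.39, in the opposite direction to Afp. Afm, an albumin family gene, was 489.2 against 80.9. Of the 10 other fetal and oncofetal genes compared, 4 were at least 2-fold lower and 0 higher. Among the 4 were Slpi (285.2 against 1835.6), a protease inhibitor, and Ly6d (391.1 against 2393.8). In 20 other imprinted genes 1 was at least 2-fold higher and 1 lower. Beside both lists stand 4.65% at least 2-fold higher and 2.95% lower over all 7789 genes. Cdkn1c, a cell cycle inhibitor, was 318.6 against 82.7, and Phlda2, an imprinted growth gene, was 16.6 against 121.5.

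**Figure D4:**
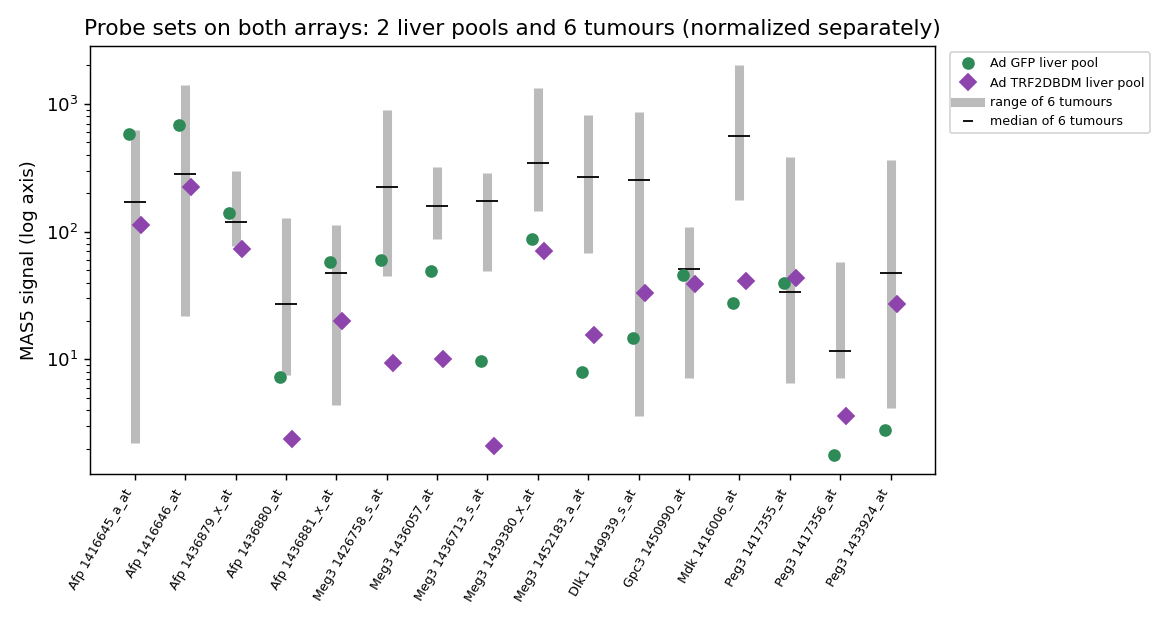
Signals of the member probe sets on the array of each virus (points) beside the range (grey bars) and median (black lines) of the 6 tumours, on a log axis of MAS5 signal. Afp 1416646_at is at 225.3 and 680.6 in the livers within the tumour range of 21.7 to 1409.7, and Mdk is at 40.9 and 27.7, below the lowest tumour at 175.4.

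The tumour and adenovirus arrays are different designs that were normalized separately, so levels are set side by side with no fold. Xist was 3607 with Ad TRF2DBDM and 2307.6 with Ad GFP, against 13.3 to 920.5 in the tumours, and the sex of the mice is not given. The part of this in the levels below was not tested. Mdk was above both livers in 6 of 6 tumours, at 175.4 to 2002.7. Meg3 was above both livers in 6 of 6 tumours for 4 of 5 shared probe sets, and in 5 of 6 for 1426758_s_at. Dlk1 1449939_s_at was above both livers in 5 of 6 tumours and below both in mTERC- tumour 1. Afp 1416646_at was above both livers in 2 tumours and below both in 3, so it stood in no fixed order to them. Igf2 was 17.9 and 54.8 in the livers and 9827.8 to 24035.2 in the tumours.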

How the data were processed

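RNA was measured on Affymetrix arrays, 6 for tumours and 2 for adenovirus livers. The authors deposited linear MAS5 signals, per the submitters' processing notes. Its version and target and the genome build are not given in the sources. On each array the mean without the lowest and highest 2% was 150, checked on the deposited signals. The members and lists were chosen with earlier results of these data known.

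Levels were log2(signal + 32). Each gene was represented by its single-symbol probe set of highest mean, and genes at or above the median level of all probe sets were tested, 11966 of 18194. A second fit took all 34958 single-symbol probe sets with no filter. Tumour groups were tested in limma 3.58.1 (R 4.3.3), two-sided, with a variance trend and Benjamini-Hochberg adjustment, passing below 0.05. The code was tested on simulated data. An array holds no count of molecules, and the number of arrays limits the precision. The replicate numbers follow accession order and pair no samples. Separate mice supplied the tumours, while each adenovirus pool was measured once. Named genes were every member, up to 3 genes of each list with the smallest p or the largest ratio, and the 3 nearest in pattern. Igf2 and the further genes named for their role were added by name. The alternatives were other normalizations, pseudocounts, filters, probe set rules, covariates, array weights and tumours left out.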

Additional observations from a re-analysis of the deposited data

Results flagged for a closer look

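A probe set annotated to both Mir675 and H19 was left out of the comparisons because it names no single gene. It is flagged because its signal was 715.6 with Ad TRF2DBDM and 109.2 with Ad GFP, 1 array each, a log2 ratio of 2.40. In the tumours the same probe set gave 13180.7, 20729 and 27424.4 in mTERC+ tumours 1 to 3 and 12961.9, 25194 and 156.9 in mTERC- tumours 1 to 3, so mTERC- tumour 3 was the single low value.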

How the results depend on the processing

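Afp, Mdk and Meg3 kept their direction in the 18 alternatives of the gene fit. Their ranges were 1.12 to 3.50, 1.47 to 2.27 and 0.63 to 2.26, with adjusted p from 0.202, 0.402 and 0.139 upward in limma. On the same probe set, separated groups cannot change direction when a tumour is left out, arrays are weighted or the pseudocount differs. Level filters and the variance trend leave the difference unchanged. In those alternatives the direction was therefore fixed in advance. Peg3 ran from 0.48 to 3.08 over the 14 alternatives in which it was tested. Dlk1 ran from -3.18 (18S covariate, adjusted p = 0.870 in limma) to 1.05 over its 18 alternatives and from -1.34 to 0.60 with a tumour left out, and it reversed to 1.05 with Xist as a covariate, 0.27 without mTERC+ replicate 1 and 0.60 without mTERC- replicate 1 (the last 2 also in the fit over all probe sets), and the Peg3 adenovirus ratio turned from 0.063 to -0.057 with quantile normalization. The cause was not tested. Averaging all probe sets per gene gave 1.12 for Afp and 0.64 for Meg3. Of all genes, 0 passed with median centring, a pseudocount of 1, a filter at percentile 75, the mean of probe sets, no variance trend or the 18S covariate, and 0 to 6 with a tumour left out, against 1. Genes without overlap, 1216 at first, were 1886 with no level filter, 711 at percentile 75, 2182 to 2799 with a tumour left out and 2388 without mTERC- tumour 2 with probe sets unchanged. Probe sets that passed, 3 at first, were 1 with a pseudocount of 1, with the higher one or with a median filter, 0 with no variance trend, 7 with array weights and 1 to 10 with a tumour left out. Genes at least 2-fold different in the adenovirus pair, 592 at first, were 1134 with a pseudocount of 1 and 249 with the higher one. The Xist covariate, the runs without _x_at probe sets and the unchanged probe sets were chosen after seeing the data. The planned Ddx3y covariate was not run. No paired analysis was possible because the labels give no replicate numbers. Dim signals limit Gpc3, Peg3 and the liver values.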
